A study of Mus musculus with 6 samples.

Results

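The mitochondrial ribosomal protein genes are the nuclear genes that encode the proteins of the mitochondrial ribosome. They were chosen by name, as every gene of the expression table whose symbol begins with Mrpl or Mrps and a number, and 77 of 16703 genes met this rule. In total 48 carry an Mrpl name and 29 an Mrps name. Sorted by where the protein sits in the ribosome rather than by name, 50 belong to the large subunit, 26 to the small subunit, and 1, Mrps36, belongs to neither. Mrps18a and Mrps30 are named for the small subunit but sit in the large one. Mrps36 is a component of the 2-oxoglutarate dehydrogenase complex and was kept because the rule goes by name. Mrpl53 was not analysed here.

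The study compared the hippocampus of aged and young mice, and RNA sequencing of 6 libraries was used here. The aged group held 3 male C57BL/6 mice of 20 months, and the young group held 3 male C57BL/6 mice of 3 months. C57BL/6 is an inbred laboratory strain, and the labels name no transgene and no treatment. Each library came from the poly(A)-selected RNA of 1 mouse, and the methods state that the replicates had been selected with a preceding qPCR assay. The tissue label fitted its markers, since neuronal markers lay between 179 and 1810 CPM (adjusted counts scaled to a common library total) and dentate granule cell markers between 44.8 and 117 CPM. The 5 markers of the choroid plexus, a tissue that lies beside the hippocampus, summed to 2460, 313 and 556 CPM in aged mice and 2730, 2662 and 2684 CPM in young mice. The 4 microglial markers summed to between 223 and 228 CPM in aged mice and between 187 and 192 CPM in young mice. The part of either difference in the results below was not tested, except where a fit with the choroid plexus markers is given. The deposited values are adjusted counts from which 1 factor of unwanted variation had been removed, with totals of 15904809, 17548247 and 17042873 in aged mice and 15238190, 15311895 and 15393656 in young mice, so the depth of a single library cannot be read from them. The values of aged replicates 2 and 3 lay closer together than counting noise allows. Their mean squared difference was 0.562 times the variance of counting over 6579 genes and 0.358 times over 48 of the mitochondrial ribosomal protein genes. For the other pairs within a group it was 1.42 to 2.96 times over the 6579 genes. Over the 48 genes it was 0.811 times for aged replicates 1 and 3, and 1.19 to 1.75 times for the remaining pairs. Removal of the factor left no spread along 1 direction among the 6 libraries, in which aged replicates 3 (weight 0.748) and 2 (weight -0.524) counted most. Its part in their closeness was not tested. Both were kept as samples of their own, since they came from separate mice, and averaging them is among the alternatives.

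The mitochondrial ribosome makes the few respiratory chain and ATP synthase subunits that mitochondrial DNA still encodes. Its RNAs come from mitochondrial DNA, whereas all of its proteins are translated in the cytosol and imported. Many of them have counterparts in the bacterial ribosome, and others are found only in mitochondria. Neurons depend heavily on oxidative phosphorylation, and knockdown of the Mrps5 counterpart in the worm Caenorhabditis elegans lengthens its life.

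Promoters of genes for mitochondrial proteins are known for motifs of NRF1, ETS factors such as GABPA, and YY1, so the RefSeq promoter windows (GRCm38.p6, 250 bases before to 50 bases after the start) of the mitochondrial ribosomal protein genes were searched on both strands for 3 strings. These were the ETS string CCGGAAG and the NRF1 and YY1 strings given in capitals in the stretches of Mrpl9 and Mrps18a below, and none of them contains another. A window was found for 68 of 77 genes. The ETS string was present in 25 of the 68 (36.8%), against 17.6% of the 12158 table genes with a window and 9.93% of all 27025 windows' genes. The YY1 string was present in 5 (7.35%), against 1.53% and 0.755%, and the NRF1 string in 3 (4.41%), against 2.03% and 1.07%. At least 1 of the strings was found in 31 genes (45.6%), against 20.4% of table genes and 11.3% of all. A match is a description of the letters and shows no binding. The following 30-base stretches are shown because they belong to genes with the smallest p-values between the ages, to a gene whose aged values were all lower, to a gene with the same pair of strings as Mrps18a, or to an example of the NRF1 string. Each reads 5′ to 3′ on the strand of the gene, with the motif in capitals.
Mrps18a, ETS, chr17:46110967-46110996 (+): acacccctgctCCGGAAGcggaagtgcaca
Mrps18a, YY1, chr17:46111006-46111035 (+): gtgcgttccAAGATGGCGGCcctcagggct
Mrps27, ETS on the opposite strand, chr13:99344727-99344756 (+): tggtaggaccaCTTCCGGcggaggcgggct
Mrps27, YY1, chr13:99344791-99344820 (+): gtgcgctccAAGATGGCGGCtcccatggtg
Mrps26, ETS on the opposite strand, chr2:130563732-130563761 (+): ctccgcggccaCTTCCGGgccgggcgcagg
Mrpl52, ETS on the opposite strand, chr14:54426900-54426929 (+): ggccacgcccaCTTCCGGttcccttgctcc
Mrpl27, ETS, chr11:94653725-94653754 (+): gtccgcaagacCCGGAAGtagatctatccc
Mrpl48, ETS on the opposite strand, chr7:100583146-100583175 (-): ggttttaaaaaCTTCCGGaaccaagatgct
Mrpl9, NRF1, chr3:94443298-94443327 (+): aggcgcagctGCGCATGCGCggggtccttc
Mrps18a and Mrps27 both hold an ETS string before the start and a YY1 string just after it, and the ETS string lies on opposite strands in the pair. In Mrps18a the strings begin at positions -26 and 11, counted with the first transcribed base as 0, and in Mrps27 at positions -48 and 14. Mrpl10, Mrpl30, Mrpl38, Mrpl42 and Mrps10, also among the genes with the smallest p-values, had either no window or none of the strings. The 25 genes with the ETS string had a median log2 fold change of 0.048 and 17 of them were above 0, and the 43 without it had a median of 0.058 with 27 above 0. The 5 genes with the YY1 string had a median of 0.069 with 3 above 0. The 3 with the NRF1 string had a median of -0.0058 with 1 above 0.

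All 77 genes were detected in every library. Their mean levels ran from 3.64 to 75.3 CPM with a median of 27.6, and the lowest single value rested on 49 adjusted counts. Divided by the length of the principal transcript, levels ran from 3.78 to 57.4 CPM per kb, a 15.2-fold range, with a median of 18.5. The median was 19.4 CPM per kb for the large subunit and 13.6 CPM per kb for the small subunit. Genes of the cytosolic ribosome, which translates nuclear mRNAs, had a median of 152 CPM per kb, and nuclear genes of respiratory complex I had a median of 75.2 CPM per kb. The order within the ribosome depended on which length was used, as only 5 of the 10 highest and 5 of the 10 lowest were the same with the union of all annotated exons. Mrpl20, Mrps21, Mrpl41, Mrpl12 and Mrpl27 were among the 10 highest either way, and Mrps35 was the lowest by the principal transcript, all named after their values were seen. Mrps21 was at 54.6 and Mrps35 at 3.78 CPM per kb, although both sit in the same subunit.

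No mitochondrial ribosomal protein gene passed the test between aged and young hippocampus. At a false discovery rate of 0.05 (limma, Benjamini-Hochberg adjustment over 16703 genes), 0 of 77 were higher and 0 of 77 lower in aged mice, where 1.20% of all genes were called higher, 0.784% lower and 1.98% in either direction. With a fold change of at least 1.5 the count was also 0, against 0.706% of all genes. At an unadjusted p under 0.05, 9 of 77 (11.7%) were found, against 14.9% of all genes, and all 9 were higher in aged mice, whereas the genes at large divided into 1337 higher and 1148 lower. The estimates were small as well as uncalled. Log2 fold changes (aged over young, on the log2 CPM scale) ran from -0.12 for Mrps17 to 0.26 for Mrps18a, which are folds of 0.92 and 1.20. In the main fit, the unadjusted 95% interval lay within a 1.5-fold change in either direction for all 77 genes and within 1.4-fold for 75. These intervals may be too narrow, since the removed factor came from the same libraries. Over 22 alternative fits the log2 fold change of Mrps28 reached 0.46, and the intervals of those fits are not given here. The widest upper bound was 0.53 (Mrpl33) and the lowest bound was -0.43 (Mrps18c), both among the least abundant genes.

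**Figure D1:**
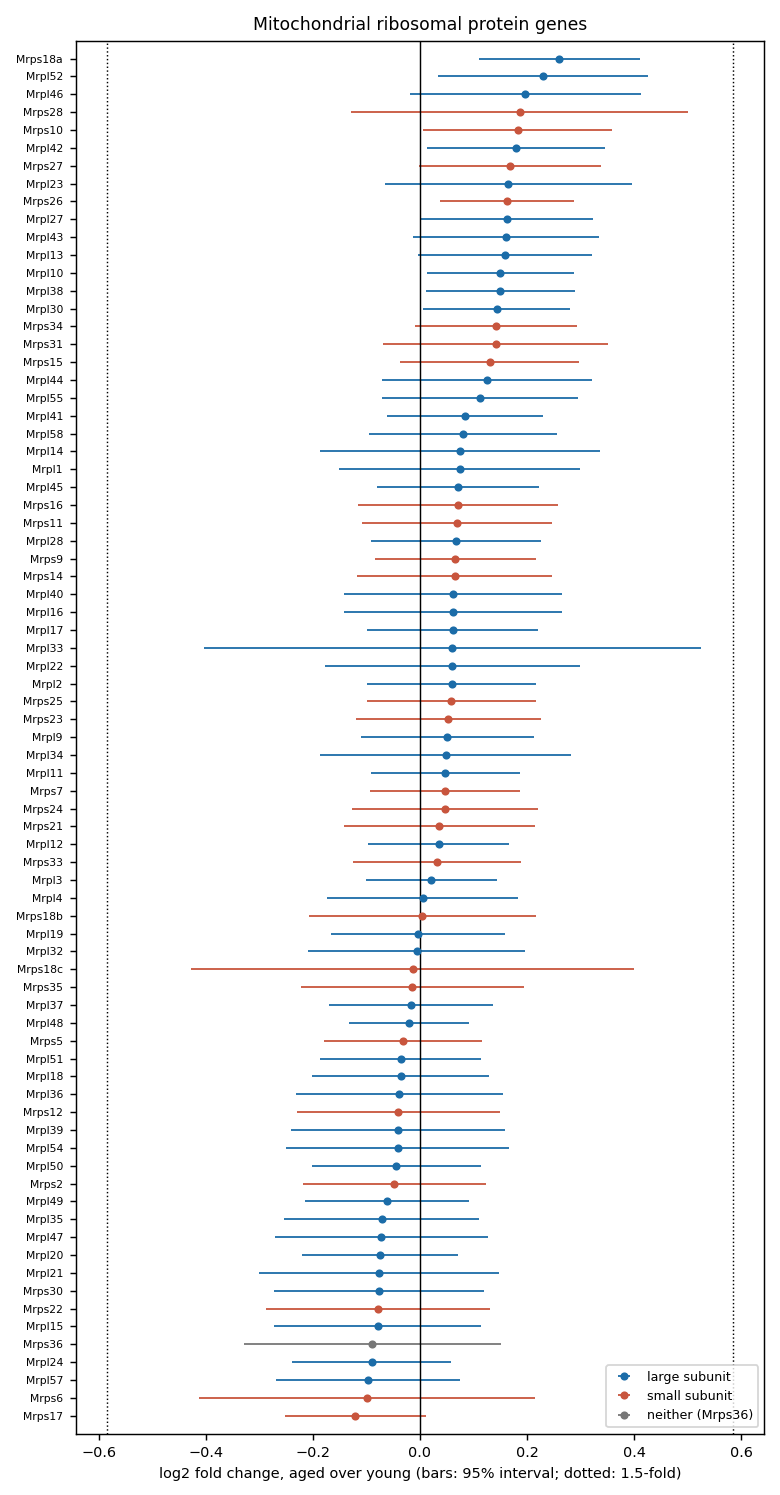
Log2 fold change (aged over young) of each of the 77 mitochondrial ribosomal protein genes on the x axis, in order of size, with unadjusted 95% intervals as bars and colours for the ribosomal subunit. All intervals lie between the dotted lines at a 1.5-fold change, and large and small subunit genes are mixed along the order.

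As a group the estimates lay slightly above 0. The median log2 fold change was 0.051, beside 0.0049 over all genes (0.031 and 0.0048 without young replicate 2), and the middle 50% of the genes lay between -0.036 and 0.11, beside -0.088 and 0.11 for all genes. In total 49 of 77 (63.6%) were above 0, against 51.4% of all genes. The share of estimates above 0.1 was close to the background, at 20 of 77 (26.0%), against 27.1%. Of the 28 genes below 0, 1 (1.30% of the 77) was below -0.1, against 22.8% of all genes. All aged values lay above all young values in 19 genes (24.7%, against 14.5% of all genes), and all aged values lay below all young values in 3 genes (3.90%, against 12.7%). The 3 were Mrps17, Mrpl24 and Mrpl48, and only 1 gene of the 77 was left in this count when libraries were centred on their 75th percentile. In whole tissue, fewer cells of a type and less RNA per cell cannot be told apart, and this holds for each value given here.

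The summed level of the 77 genes was 2265, 2256 and 2250 CPM in aged mice and 2198, 2165 and 2203 CPM in young mice. The aged sums averaged 2257 ± 7.46 CPM and the young sums 2189 ± 20.7 CPM (SD, n = 3 each), a ratio of 1.03, and the groups did not overlap. The removed direction weighed most on aged replicates 3 (0.748) and 2 (-0.524). The SDs and overlaps given here are thus of adjusted values and do not measure the spread of 3 independent mice. Large subunit genes summed to 1523 ± 4.77 CPM in aged mice and 1477 ± 11.7 CPM in young mice. Small subunit genes summed to 722 ± 2.91 CPM in aged mice and 698 ± 8.32 CPM in young mice. The ratio of the large to the small subunit sum was 2.11 in aged mice and 2.12 in young mice, and the groups overlapped, with aged replicate 3 at 2.11 and young replicate 1 at 2.11. Young replicate 2 held the lowest sum and was the lowest of the 6 libraries for 24 genes. Aged replicate 1 was the highest library for 22 genes and aged replicate 2 for 20. Aged replicate 3 was the highest for 4 and the lowest for 3, and lay between aged replicates 1 and 2 in 59 of 77 genes (76.6%), as it did in 62.1% of all genes. In the removed direction aged replicate 3 (0.748) stood against aged replicates 1 (-0.249) and 2 (-0.524). Its values therefore cannot be taken as independent of theirs.

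**Figure D2:**
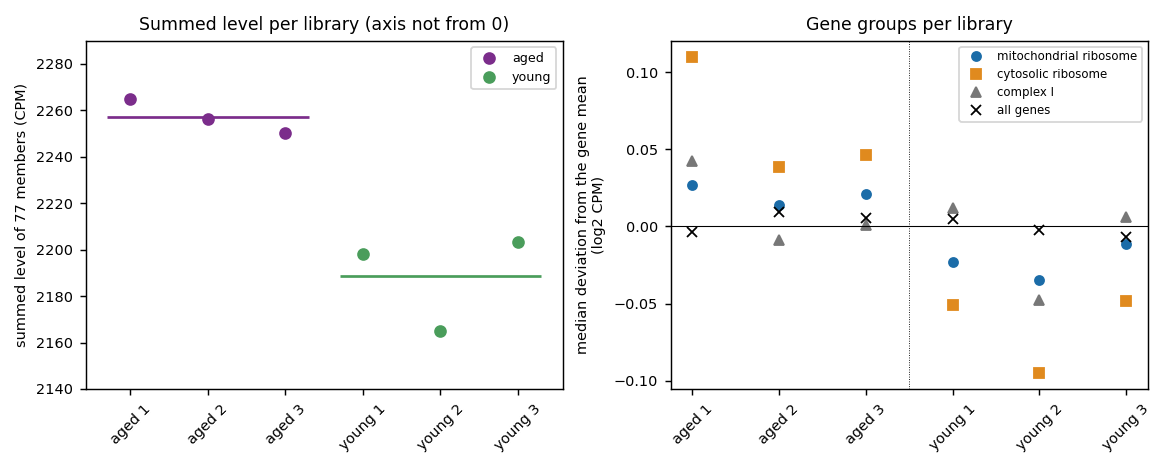
Left, summed level (CPM, axis not from 0) of the 77 genes in each library, with group means as lines, where the 3 aged libraries sit between 2250 and 2265 and the 3 young libraries between 2165 and 2203. Right, median deviation from each gene's mean over the 6 libraries (log2 CPM) for 4 gene groups, where the mitochondrial ribosome is displaced in the same direction as the cytosolic ribosome but by less.

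Mrps18a had the smallest p-value of the 77. Its protein is 1 of the 3 mammalian versions of bacterial ribosomal protein S18 and sits in the large subunit. Its level was 40.4, 38.0 and 39.3 CPM in aged mice and 33.6, 33.4 and 31.2 CPM in young mice. Every aged value was above every young value, and the gap between the groups was larger than the spread within either. The log2 fold change was 0.26 ± 0.071 (SE), with an adjusted p of 0.079 by limma. Without a term for the removed factor its adjusted p was 0.034, and over all 22 alternatives it ran between 0.034 and 0.46. The other versions of S18, Mrps18b and Mrps18c, sit in the small subunit. In the classes below, Mrps18a and Mrps18b are counted as mitochondria-specific and Mrps18c as having a bacterial counterpart, although all 3 are versions of S18. Mrps18b was level between the ages, at 14.4, 14.5 and 14.4 CPM in aged mice and 14.3, 14.3 and 14.6 CPM in young mice, a log2 fold change of 0.0046 ± 0.10 (SE). Mrps18c, the least abundant of the 77, was at 3.90, 3.36 and 3.58 CPM in aged mice and 3.94, 3.85 and 3.18 CPM in young mice, and its log2 fold change of -0.014 ± 0.19 (SE) had the lowest bound of all intervals.

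Among other large subunit proteins that are particular to mitochondria, Mrpl52, Mrpl42 and Mrpl38 had no overlap between the ages. Mrpl52 was at 24.9, 25.1 and 23.8 CPM in aged mice and 21.9, 18.7 and 22.4 CPM in young mice, with young replicate 2 the lowest. Its log2 fold change was 0.23 ± 0.092 (SE; adjusted p = 0.25 by limma), being 0.42 without aged replicate 3 and 0.14 without young replicate 2. These fits, and those below for Mrpl46 and Mrpl58, kept the term for the removed direction. Without aged replicate 3 its aged weights were -0.249 and -0.524, against 0.172, -0.252 and 0.106 in young mice. The term then overlaps with age, so values without aged replicate 3 are not plain differences between the groups. Mrpl42 was at 32.8, 30.3 and 30.7 CPM in aged mice and 27.0, 26.5 and 29.3 CPM in young mice, with a log2 fold change of 0.18. Mrpl38 was at 47.6, 51.1 and 49.0 CPM in aged mice and 45.02, 42.3 and 45.9 CPM in young mice, with a log2 fold change of 0.15. In Mrpl42 and Mrpl38 young replicate 3 came close to the lowest aged library. Mrpl46, whose start overlaps that of Mrps11 in the annotation, had a log2 fold change of 0.20 ± 0.10 (SE), but aged replicate 1 (19.1 CPM) lay below young replicate 2 (19.3 CPM), and the value was 0.013 without aged replicate 3 and 0.11 without young replicate 3. Mrpl44, which carries an RNase III-like fold, had a log2 fold change of 0.13. Mrpl58, a peptidyl-tRNA hydrolase that was built into the ribosome, had one of 0.080, which ran between 0.0083 without young replicate 2 and 0.33 without aged replicate 3, and the groups overlapped in both genes. Mrpl57 had a log2 fold change of -0.097 and Mrps30 one of -0.077, also with overlap. Of the 20 genes of this class, 11 were above 0, with a median log2 fold change of 0.067.

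Large subunit proteins with a bacterial counterpart had log2 fold changes between -0.090 and 0.17. Mrpl10 forms the base of the stalk that recruits translation factors. It was at 52.2, 55.3 and 53.4 CPM in aged mice and 47.7, 46.2 and 51.3 CPM in young mice, with a log2 fold change of 0.15 ± 0.065 (SE; adjusted p = 0.29 by limma). Mrpl12, the stalk protein that binds to Mrpl10, was at 50.05, 49.4 and 49.2 CPM in aged mice and 50.1, 47.5 and 47.4 CPM in young mice. Its groups overlapped, since young replicate 1 was the highest library, and its log2 fold change was 0.035. Mrpl30 was at 50.05, 45.8 and 47.2 CPM in aged mice and 43.6, 43.0 and 42.7 CPM in young mice, without overlap and with a log2 fold change of 0.14. Mrpl27, which lies close to the peptidyl transferase centre and is given as the last of the 9 genes at an unadjusted p under 0.05, was at 28.9, 29.6 and 29.04 CPM in aged mice and 26.5, 25.3 and 26.5 CPM in young mice, with a log2 fold change of 0.16. Its exons overlap those of Eme1 on the opposite strand in the annotation. Mrpl23 had a log2 fold change of 0.17 with overlapping groups, Mrpl3 one of 0.021 and Mrpl15 one of -0.079. Mrpl24 was at 35.3, 34.9 and 35.3 CPM in aged mice and 38.5, 38.3 and 35.5 CPM in young mice. Its aged values were all lower, but the highest of them was within 0.3 CPM of young replicate 3, and the log2 fold change was -0.090 (adjusted p = 0.60 by limma). Of the 30 genes of this class, 20 were above 0, with a median log2 fold change of 0.050.

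In the small subunit, Mrps26 had the smallest p-value. It is particular to mitochondria and was at 58.3, 59.4 and 60.0 CPM in aged mice and 51.5, 53.8 and 53.4 CPM in young mice. The groups were well apart, and the log2 fold change was 0.16 ± 0.059 (SE; adjusted p = 0.20 by limma). Mrps27, a pentatricopeptide repeat protein of the same class, was at 29.2, 27.6 and 27.8 CPM in aged mice and 24.6, 24.1 and 26.5 CPM in young mice, with a log2 fold change of 0.17. Mrps22, in which mutations cause human mitochondrial disease, had a log2 fold change of -0.078 with overlapping groups. Of the 10 mitochondria-specific genes of the small subunit, 8 were above 0, with a median log2 fold change of 0.056.

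Small subunit proteins with a bacterial counterpart included the lowest estimate of all. Mrps10 was at 23.0, 24.0 and 23.9 CPM in aged mice and 21, 20.96 and 20.5 CPM in young mice, without overlap, and its log2 fold change was 0.18 ± 0.083 (SE; adjusted p = 0.32 by limma). Mrps17 was at 49.98, 49.4 and 49.6 CPM in aged mice and 56.1, 54.5 and 51.4 CPM in young mice. Its aged values were all lower and close together, while the young values were spread, and the log2 fold change of -0.12 ± 0.062 (SE; adjusted p = 0.39 by limma) was the lowest of the 77. Mrps6 had a log2 fold change of -0.099 and Mrps28 one of 0.19, both at under 10 CPM and with overlap. With 1 library left out the value of Mrps28 ran between 0.074 without aged replicate 1 and 0.41 without aged replicate 3. Both fits kept the term for the removed direction, which overlaps with age once aged replicate 3 is left out. Mrps16, which is also mutated in human disease, was at 20.1, 20.7 and 20.7 CPM in aged mice and 19.9, 19.8 and 18.8 CPM in young mice, without overlap but with a log2 fold change of only 0.071. Mrps5 was at 44.1, 40.2 and 42.7 CPM in aged mice and 42.1, 45.9 and 42.0 CPM in young mice, a log2 fold change of -0.032 with overlapping groups. Of the 16 genes of this class, 10 were above 0, with a median log2 fold change of 0.047. The 4 classes thus had medians between 0.047 and 0.067. Mrps36, outside the ribosome, had a log2 fold change of -0.089.

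**Figure D3:**
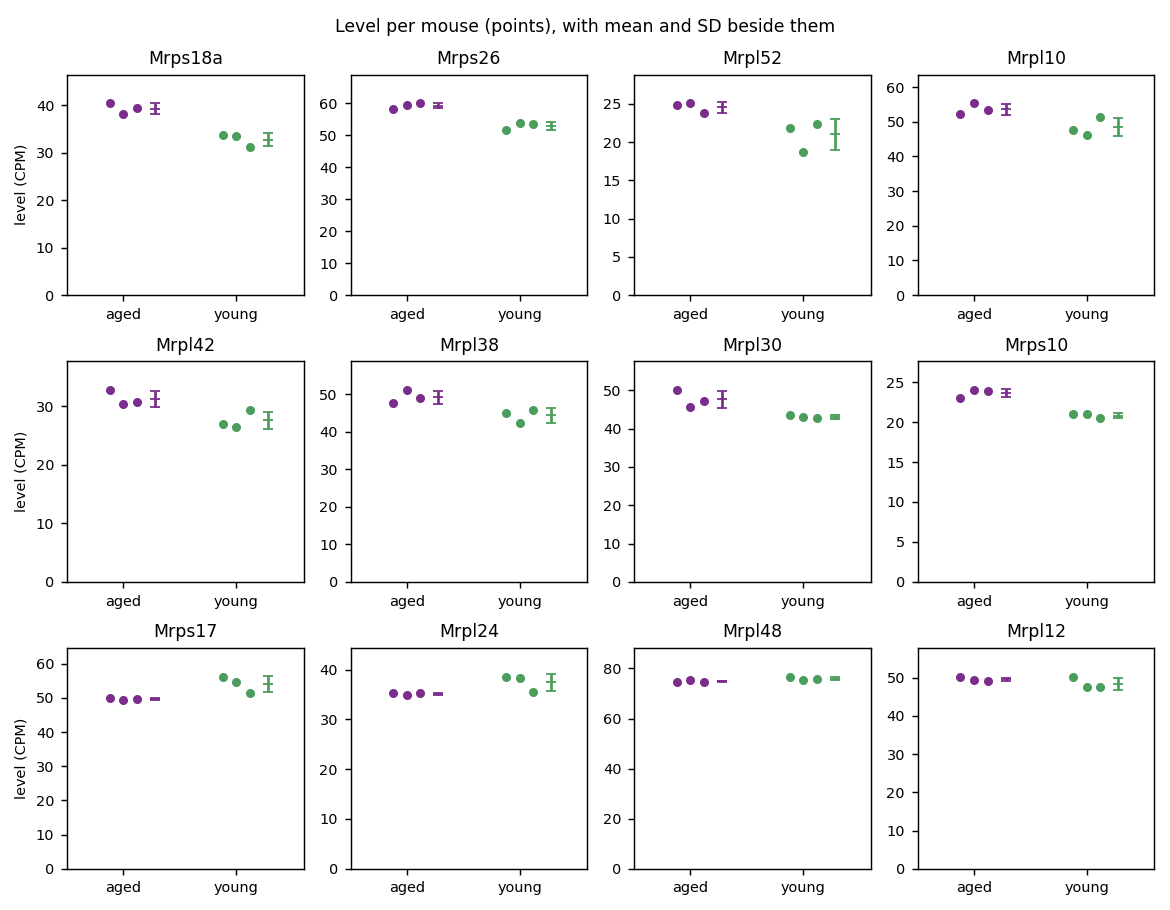
Level (CPM, y axis from 0) of the 8 genes with the smallest p-values in the first 2 rows, and of Mrps17, Mrpl24, Mrpl48 and Mrpl12 in the last, with a point per mouse and the mean with its SD beside the points. In Mrps18a the 3 aged mice sit between 38.0 and 40.4 CPM and the 3 young mice between 31.2 and 33.6 CPM, and in Mrps17 the aged mice sit below the young mice.

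Ribosomal proteins outside the Mrp names and the factors that build and run the mitochondrial ribosome were compared next, and no gene in any of these lists passed the test. Dap3, Ptcd3, Chchd1, Aurkaip1 and Gadd45gip1 encode further proteins of this ribosome. Chchd1 was at 23.1, 23.3 and 22.6 CPM in aged mice and 20.5, 19.0 and 21.1 CPM in young mice, a log2 fold change of 0.18 (adjusted p = 0.34 by limma), and the median of the 5 was 0.0064. Of 27 genes for assembly and rRNA modification, 16 were above 0 with a median of 0.011, and the smallest p-values were those of Malsu1 (0.29) and Mpv17l2 (0.23), each given as a log2 fold change. Of 15 translation factors, 6 were above 0 with a median of -0.056, with Gfm2, a recycling factor, at 0.18 and Lrpprc, an mRNA-binding protein, at -0.14. Of 21 genes that charge mitochondrial tRNAs, 7 were above 0 with a median of -0.062, with Cars2 at -0.22 and Gatc at 0.17. Of 19 genes for transcription of mitochondrial DNA and RNA processing, 8 were above 0 with a median of -0.011, with Polg2 at 0.40 (under 4 CPM) and Fastk at -0.088. The medians of the protein components were thus above 0, and those of the translation factors, tRNA charging and transcription lists below 0, with no gene called on either side.

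The mRNAs that this ribosome translates are encoded by mitochondrial DNA. Of 11 in the table, 10 were above 0, with a median log2 fold change of 0.090 and 0 called, and mt-Nd1 had the smallest adjusted p (0.061 by limma). mt-Nd1 was at 5392, 5121 and 5205 CPM in aged mice and 4792, 4696 and 4718 CPM in young mice, without overlap. The second, mt-Nd6, had a log2 fold change of 0.16. Several of these mRNAs have levels that cannot be read as such. mt-Co2 lay between 9.47 and 13.7 CPM although mt-Co1 lay above 12832 CPM, and the cause was not tested. Of 36 nuclear complex I genes, 23 were above 0 with a median of 0.018 and 0 called. Ndufs1, its largest subunit, had a log2 fold change of -0.16 with all aged values below all young values, and Ndufb1 one of -0.22 with overlap.

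Genes of the cytosolic ribosome, unlike those of the mitochondrial one, included calls. Of 82 genes, 17 rose in aged mice (limma, false discovery rate 0.05) and 0 fell, against 1.20% and 0.784% of all genes. In total 76 (92.7%) were above 0, against 51.4%, and all aged values lay above all young values in 57, against 14.5%. A call depends on the standard error as well as the size. Rpl19, at 217 to 248 CPM, was called at a log2 fold change of 0.17 ± 0.041 (SE). Mrps18a, at 31.2 to 40.4 CPM, was not called at 0.26 ± 0.071 (SE). The median log2 fold change was 0.13, beside 0.051 for the mitochondrial ribosome. Rps24 was at 273, 265 and 268 CPM in aged mice and 235, 227 and 224 CPM in young mice, a log2 fold change of 0.23 ± 0.042 (SE; adjusted p = 0.0092 by limma). The difference between the sets of genes was not tested. The count of 17 was 0 once the mean choroid plexus marker level entered as a covariate and 0 without a trend in the prior variance. It ran between 0 and 18 with 1 library left out, being 0 without aged replicate 3 and 1 without aged replicate 1 or young replicate 1. The median log2 fold change without aged replicate 3 was 0.20, and 0.14 with no term for the removed direction. It was 0.11 without aged replicate 1, 0.15 without young replicate 1 and 0.20 with the choroid plexus covariate. The choroid plexus covariate correlated with age at -0.795 over the 6 libraries, so the fit cannot separate them well. With this covariate the median of the mitochondrial ribosomal protein genes was 0.037, and 0 were called.

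**Figure D4:**
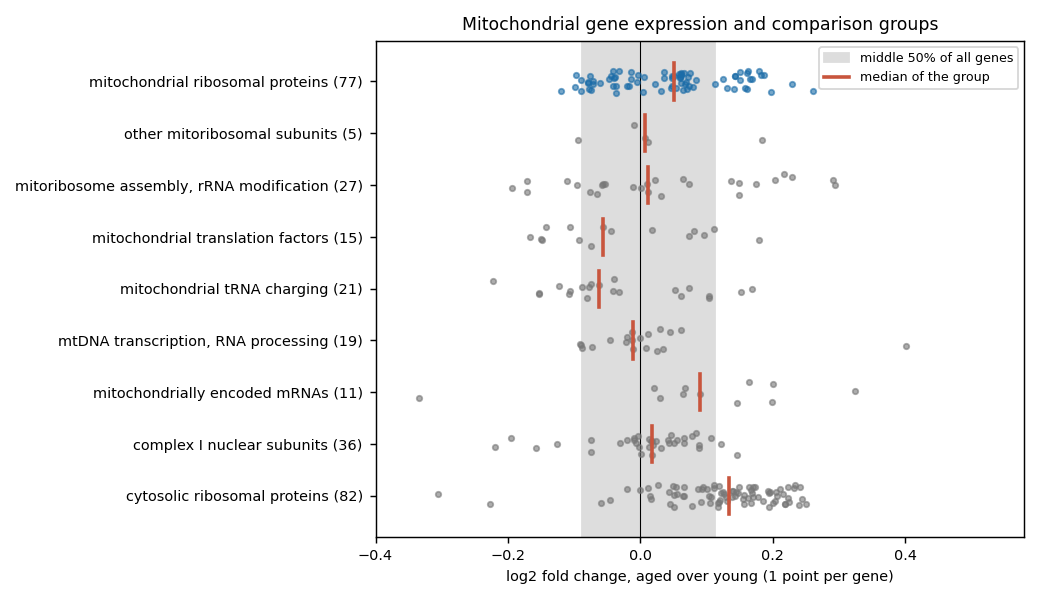
Log2 fold change (aged over young, x axis) of each gene in 9 groups, with the number of genes in parentheses, the median as a red line and the middle 50% of all genes as a grey band. The median is 0.051 for the mitochondrial ribosome and 0.13 for the cytosolic ribosome, and the cytosolic genes gather at the right edge of the band.

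The annotation showed a trait of these genes that the naming rule did not use. A protein-coding neighbour started on the opposite strand within 1000 bases of the start in 33 of 77 genes (42.9%), against 2148 of 14310 protein-coding genes of the table (15.0%), in GENCODE M21. Mrpl46 and Mrps11 are each other's neighbour. Some neighbours also act in mitochondria, such as Twnk, the mitochondrial DNA helicase, beside Mrpl43, and Sars2, the mitochondrial seryl-tRNA synthetase, beside Mrps12. Mrpl47 has Ndufb5 and Mrpl36 has Ndufs6, both complex I subunits, and Mrpl49 has Fau, which encodes a cytosolic ribosomal protein, all named after the pairs were seen. Of the 31 neighbours outside the set, 17 were above 0, the median log2 fold change was 0.0095 and 0 were called. Mrpl43 had a log2 fold change of 0.16 and Twnk one of 0.061. Mrpl49 had one of -0.061 and Fau one of 0.18. Exons of 32 of the 77 genes overlap those of another gene in this annotation, in 25 only on the opposite strand and in 7 also or only on the same strand. The library kit was a directional one, which keeps the strand of the RNA, but the strand setting of the counting is not given in the sources used here.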

How the data were processed

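RNA was sequenced from 3 aged and 3 young hippocampi. Per the labels and the submitters' processing notes, the authors used Trim Galore 0.6.6, STAR 2.7.8a, R 4.05, edgeR 3.32.1 and the mm39 build, while the extended methods name Trimmomatic, uniquely mapped reads and RUV, a method that takes unwanted variation out of the counts. The authors deposited log2 CPM per library for 16703 genes. Columns of the authors' own comparison (log2 fold change, a likelihood ratio score, and p-value and FDR as deposited by the authors) were not used. The log2 CPM values were turned back into adjusted counts, whole to within 5.9e-09, and CPM levels were computed from these. Over 1791 genes with a mean above 2000 adjusted counts, 1 direction among the 6 libraries held no spread, as the removal of 1 factor leaves it.

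The test was limma 3.58.1 (R 4.3.3, trended variance) on the deposited log2 CPM with terms for age and for this direction, which left 3 residual degrees of freedom beside 12.3 from the prior. Benjamini-Hochberg adjustment ran over all 16703 genes, with a false discovery rate of 0.05. Since the removed factor came from these libraries, the p-values and the spread within a group may be too small and the intervals too narrow. The steps were tested on simulated data. Groups came from the sample labels.

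The genes, lists and tests were chosen with earlier results of these data known. Named genes are members past the test, the 8 largest rises, 8 largest falls and 8 smallest p-values among members with a mean of at least 1 CPM, 13 chosen by role, and the 2 smallest p-values and called genes of each other list. Of the 17 called cytosolic genes only the first is given in full. Further genes are examples of a count or were picked once their values were known. S6 kinases, Rps19bp1 and pseudogenes were left out of the cytosolic list and Ndufa4 genes out of complex I after the table was seen. Mtrfr and Mrpl53 were not analysed here. Annotation, lengths and promoters are of GRCm38, so no gene coordinates are given for the mm39 values. Alternatives were other scalings, terms, filters, a pseudocount of 1, the replicate number as a block and each library left out.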

Additional observations from a re-analysis of the deposited data

How the results depend on the processing

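Across 22 alternatives (15 planned, 7 chosen after seeing the data), 0 of 77 genes were called lower, 0 were called with a fold change of 1.5, and 0 genes of the other mitochondrial lists were called. The count called higher was 1 (Mrps18a) with no term for the removed direction (adjusted p = 0.034) and 1 with the replicate block and no such term (adjusted p = 0.049), and 0 to 1 with 1 library left out, where it was 1 without young replicate 2 and with no term (adjusted p = 0.045). In the other settings it was 0. The median log2 fold change of 0.051 was 0.064 with 75th percentile centring, 0.037 with the choroid plexus covariate, and 0.031 to 0.061 with 1 library left out, lowest without young replicate 2. The 19 genes with aged values all above young values were 17 to 21 under the 2 centrings, and the 3 below were 1 under 75th percentile centring. Cytosolic genes called higher were 28 with no term, 0 with no trend in the prior variance and 0 with the choroid plexus covariate (17 in the main fit). With 1 library left out they were 0 to 18, and 0 without aged replicate 3. Without aged replicate 3 their median log2 fold change was 0.20, and 0.14 with no term, beside 0.13 in the main fit.

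Of 28 named genes, 20 kept the sign of their log2 fold change in all 22 alternatives and 8 did not, in 26 of 616 fits. With the choroid plexus covariate the value was -0.048 for Mrpl3, 0.029 for Mrpl57, -0.00076 for Mrps18b, 0.11 for Mrps18c and 0.036 for Mrps5. With the mean of aged replicates 2 and 3 as 1 sample it was 0.014 for Mrps18c. With 1 library left out it ran from -0.0014 to 0.015 for Mrps18b, -0.11 to 0.068 for Mrps18c, -0.077 to 0.027 for Mrps5, -0.16 to 0.031 for Mrpl15, -0.054 to 0.047 for Mrpl3, -0.12 to 0.018 for Mrps22 and -0.22 to 0.073 for Mrps6. With 1 library left out, 20 of the 28 values moved by over 1.5 times in at least 1 fit, and the exceptions were Mrpl10, Mrpl24, Mrpl30, Mrpl38, Mrps10, Mrps17, Mrps18a and Mrps26. These fits were run with and without the term for the removed direction. Once aged replicate 3 is left out, this term overlaps with age, so the count does not measure the weight of single mice alone. The cause was not tested.

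The replicate block beside the removed direction gave 0 genes called and a median of 0.048, with 226 genes of the table higher and 163 lower, against 200 and 131. Deviations of same-numbered libraries correlated at 0.164, -0.298 and -0.472, and those of aged replicate 3 and young replicate 2 at 0.839. The removal of 1 factor ties aged and young values together, so these correlations cannot show whether the numbers pair the mice. Count models were not run because the deposited values are log2 CPM of adjusted counts, from which 1 factor had been removed. Calls over all genes depended on the settings, with 319 higher and 204 lower with no term, 0 and 0 with no trend, and 34 and 31 with the choroid plexus covariate. With 3 mice a group, the unadjusted interval of a single gene had a median half-width of 0.17 on the log2 scale.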
